A study of Mus musculus with 8 samples.

Results

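RNA:DNA hybrids were compared between mouse embryonic fibroblasts (MEFs) in which Rtel1 was deleted and RNaseH1 was induced (Cre DOX) and MEFs that received neither (GFP mock). All cells were Rtel1F/F;WT RNH1-GFP MEFs, so both alleles of Rtel1 were floxed and the cells carried WT RNaseH1 joined to GFP under doxycycline control, also where no doxycycline was given. For Cre DOX, the cells were infected with an adenovirus expressing Cre (Ad-Cre), doxycycline at 2 µg/ml was added 48 h later and the cells were collected after a further 48 h. For GFP mock, the cells were infected with Ad-GFP and mock treated. The members were all peaks called by DNA-RNA immunoprecipitation and sequencing (DRIP-seq) in these conditions, 105081 for Cre DOX and 87613 for GFP mock, which made 192694 of the 344010 peaks of the series. The other 2 lists, Cre mock (deletion without doxycycline, 91097 peaks) and GFP DOX (doxycycline without deletion, 60219 peaks), served as comparators. Each condition had 1 library, pooled from 3 immunoprecipitations with the S9.6 antibody, so there were no replicates and no difference between conditions could be tested. The intervals given are exact 95% intervals over peaks or genes, and cover counting only. The change from GFP mock to Cre DOX joined 2 steps, and the part of each in this pair cannot be told apart.

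An R-loop forms when RNA hybridizes to the DNA strand it was copied from and leaves the opposite strand single, most often behind RNA polymerase near promoters and at the ends of transcribed genes. RNaseH1 degrades the RNA strand of such a hybrid, and RTEL1 is a DNA helicase that unwinds DNA secondary structures, including G-quadruplexes that can form on the freed strand. The question addressed was whether the hybrid map of deleted cells with RNaseH1 returned to that of untreated control cells.

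Each class of peak is shown by high-scoring stretches of at most 300 bases in a promoter or coding exon, outside untranslated exons and at most 50% repeat-masked. The sequences are the plus strand of GRCm38.p6 (mm10), and capitals mark runs of 3 or more G or C, the bases from which G-quadruplexes are built. Present in both lists were a stretch in an intron of Taco1 (chr11:106066718-106066881), an activator of mitochondrial translation, and one in an intron of Rsph3a (chr17:7952171-7952441), a radial spoke protein of cilia. The scores, which are 10 times the −log10 q-value, were 277 in GFP mock and 132 in Cre DOX for Taco1, and 182 and 92 for Rsph3a. Scores grow with the depth of a library and were not scaled between lists, so they are given side by side as a description. The stretches shown here and below were not searched for other copies in the genome. How reads with several matches were placed is not given in the sources used here, so the assignment of a stretch to its gene was not tested.
Taco1: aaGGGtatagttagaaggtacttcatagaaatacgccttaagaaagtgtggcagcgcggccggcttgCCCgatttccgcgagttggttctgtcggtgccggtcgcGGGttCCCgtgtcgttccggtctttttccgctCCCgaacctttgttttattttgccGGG
Rsph3a: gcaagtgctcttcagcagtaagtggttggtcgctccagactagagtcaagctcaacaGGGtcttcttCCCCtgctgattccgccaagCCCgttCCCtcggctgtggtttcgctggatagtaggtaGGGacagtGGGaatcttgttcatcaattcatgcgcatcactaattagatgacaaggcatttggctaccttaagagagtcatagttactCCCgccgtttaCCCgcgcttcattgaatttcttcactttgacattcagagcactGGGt

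Present in GFP mock and absent from Cre DOX were a peak in an intron of Setdb2 (chr14:59440017-59440162, score 105), which encodes a SET domain protein, and a peak in a coding exon of Grik4 (chr9:42591509-42591628, score 97), a kainate receptor subunit.
Setdb2: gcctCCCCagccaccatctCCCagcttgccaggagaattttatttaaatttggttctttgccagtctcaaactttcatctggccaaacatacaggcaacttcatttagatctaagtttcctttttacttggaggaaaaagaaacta
Grik4: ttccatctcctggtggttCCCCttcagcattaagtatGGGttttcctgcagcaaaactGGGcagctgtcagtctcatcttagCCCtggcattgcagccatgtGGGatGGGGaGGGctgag

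Present in Cre DOX and absent from GFP mock was a peak in a coding exon of Mlec (chr5:115149979-115150202, score 59), a lectin of the endoplasmic reticulum.
Mlec: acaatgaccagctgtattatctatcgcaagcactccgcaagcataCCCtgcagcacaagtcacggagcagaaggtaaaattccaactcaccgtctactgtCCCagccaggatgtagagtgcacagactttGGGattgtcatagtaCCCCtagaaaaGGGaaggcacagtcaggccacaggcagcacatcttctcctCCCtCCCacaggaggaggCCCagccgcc

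Present in both lists and absent from Cre mock, which is the pattern of a return, were stretches in coding exons of Psmb3 (chr11:97713260-97713424, scores 45 in GFP mock and 32 in Cre DOX), a proteasome subunit, and of Arid3a (chr10:79946403-79946590, scores 29 and 35), a DNA-binding protein.
Psmb3: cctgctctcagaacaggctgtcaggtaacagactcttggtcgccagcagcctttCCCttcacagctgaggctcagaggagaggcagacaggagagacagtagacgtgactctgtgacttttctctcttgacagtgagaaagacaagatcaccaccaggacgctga
Arid3a: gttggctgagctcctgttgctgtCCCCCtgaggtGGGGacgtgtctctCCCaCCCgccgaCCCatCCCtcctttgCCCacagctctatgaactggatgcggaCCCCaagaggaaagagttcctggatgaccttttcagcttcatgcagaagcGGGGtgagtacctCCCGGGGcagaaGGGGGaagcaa

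Of the stretches shown, only that of Arid3a held the G-quadruplex motif searched, which was 4 runs of at least 3 G separated by 1 to 7 bases, or the same of C for the other strand. The share of peaks with a motif grows with width, so each class was set beside consecutive genome windows of its own median width. Among GFP mock peaks, 10.9% (10.6–11.2) of those shared with Cre DOX and 12.2% (11.9–12.5) of those absent from it held the motif, against 6.59% of windows of 404 bp and 3.47% of windows of 213 bp. Among Cre DOX peaks the shares were 19.3% (18.9–19.7) for shared peaks and 8.40% (8.20–8.61) for those absent from GFP mock, against 13.8% of windows of 876 bp and 6.82% of windows of 418 bp. Widths were skewed, with means of 414 bp in GFP mock and 847 bp in Cre DOX against medians of 295 and 513 bp. Windows of the median width do not account for the widest peaks, so no excess over the windows is read from these shares.

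Most peaks of either list had no counterpart in the other. Of the GFP mock peaks, 44641 (51.0%, 50.6–51.3) overlapped no Cre DOX peak by even 1 bp, and of the Cre DOX peaks, 68612 (65.3%, 65.0–65.6) overlapped no GFP mock peak. The first of these shares was 40.4% with a width floor of 213 bp in all lists and 75.6% where peaks more than 50% repeat-masked were left out. For the same GFP mock peaks, 61.5% were absent from Cre mock and 69.4% from GFP DOX, so over all peaks the absent share was lowest for Cre DOX. This order turned under 2 of 8 alternatives. Without peaks more than 50% repeat-masked, 64.7% were absent from Cre mock and 74.7% from GFP DOX, against the 75.6% for Cre DOX, and with the top decile of scores 67.9% were absent from Cre mock and 74.5% from Cre DOX. Cre DOX covered 89.0 Mb, against 36.2 Mb in GFP mock, 47.6 Mb in Cre mock and 32.1 Mb in GFP DOX. Of the length under GFP mock peaks, 54.8% also lay under Cre DOX peaks, 38.7% under Cre mock peaks and 31.8% under GFP DOX peaks. The length covered in both lists over the length covered in either (the Jaccard index, which falls where one list is much longer) with GFP mock was 18.8% for Cre DOX, 20.1% for Cre mock and 20.3% for the list with doxycycline alone. The 2 measures thus ordered Cre DOX and Cre mock differently, and with such unequal lengths neither of them settles which map was nearer to the control. Cre DOX shared 22.6% of its joint length with Cre mock and 21.2% with GFP DOX.

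Peaks that were common to both lists were wide and lay mostly in repeats. Shared GFP mock peaks had a median width of 404 bp and a median GC content of 41.5%, and 80.7% of them were more than 50% repeat-masked. GFP mock peaks absent from Cre DOX were shorter (213 bp), richer in GC (48.9%) and less often mostly masked (47.4%). The corresponding Cre DOX values were 876 bp and 78.8% mostly masked for shared peaks, and 418 bp and 73.3% for peaks absent from GFP mock. The median GC content of Cre DOX peaks hardly differed, at 41.5% for shared and 41.6% for absent peaks. In 29648 cases 1 GFP mock peak overlapped 1 Cre DOX peak and no other. In these the median width was 391 bp in GFP mock and 734 bp in Cre DOX, and the Cre DOX peak was the wider in 78.0%.

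The share in common rose with width in both lists. It rose from 30.2% of the 29971 GFP mock peaks narrower than 200 bp to 100% of the 44 peaks of 5 kb or more. In Cre DOX it rose from 18.4% of peaks of 200 to 400 bp to 98.3% of the 984 peaks of 5 kb or more. With score, the share rose steadily in Cre DOX, from 15.1% below 13 to 92.8% at 100 or more, while in GFP mock it was 22.1% below 13, lay between 44.1% and 56.8% from 13 to 100, and was 88.4% at 100 or more. Across the 42972 shared GFP mock peaks, the rank of the score in GFP mock and the highest rank of an overlapping Cre DOX peak had a Spearman correlation of 0.205, a description across peaks that are not independent. The smallest width was 106 bp for GFP mock peaks and 213 bp for Cre DOX peaks. The part of width in the shared counts beyond these values was not tested.

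**Figure D1:**
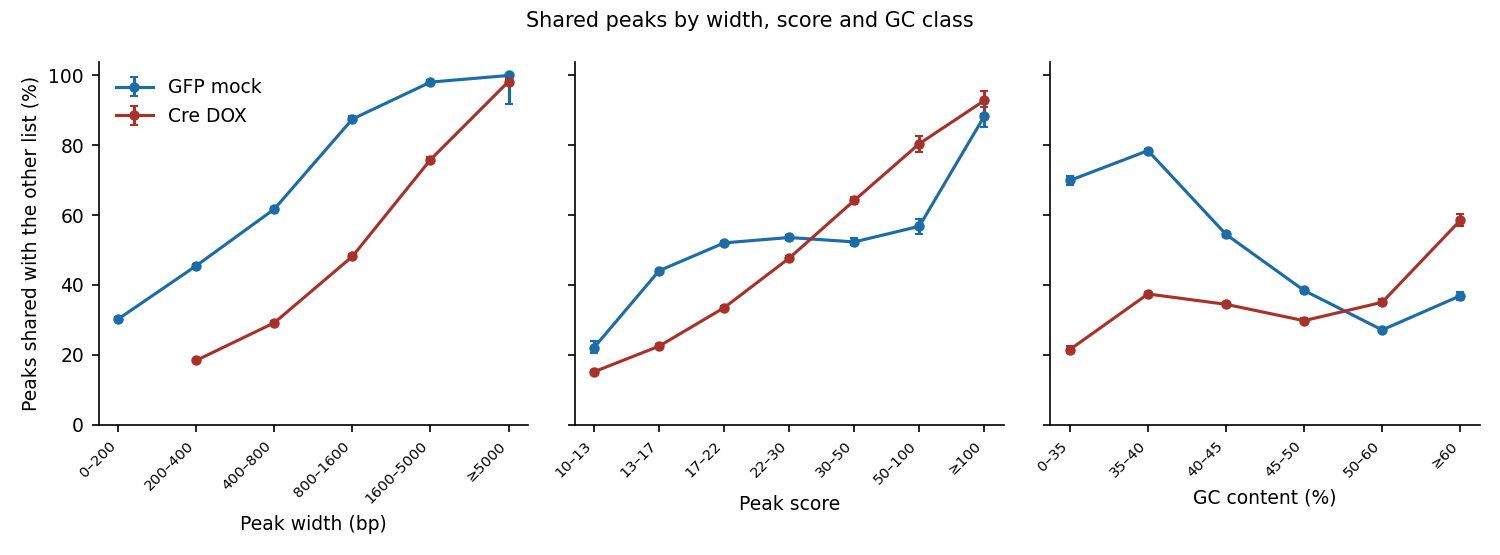
Share of GFP mock peaks (blue) that overlapped a Cre DOX peak, and of Cre DOX peaks (red) that overlapped a GFP mock peak, in percent (y axes), by peak width in bp, peak score and GC content in percent (x axes), with exact 95% intervals. The share rose with width in both lists, and among GFP mock peaks it fell from 78.5% at a GC content of 35 to 40% to 27.1% at 50 to 60%. Among Cre DOX peaks it was lowest below a GC content of 35% (21.5%) and highest at 60% or more (58.5%).

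The position of a peak in a gene was taken as the first of promoter (within 1 kb of any start site), coding exon, untranslated exon, 1 kb past the gene end, intron, other gene and intergenic sequence that it overlapped. Of GFP mock peaks, 41.1% (40.0–42.1) at promoters, 32.1% (30.3–33.9) in coding exons, 31.2% (28.0–34.5) in 3′ untranslated exons, 36.9% (36.3–37.6) in introns and 57.6% (57.1–58.0) in intergenic sequence were shared with Cre DOX. Of Cre DOX peaks, 43.2% (42.2–44.3) at promoters, 32.8% (31.0–34.7) in coding exons, 21.8% (19.2–24.5) in 3′ untranslated exons, 28.2% (27.6–28.8) in introns and 36.4% (36.0–36.8) in intergenic sequence were shared with GFP mock. Promoter peaks were thus kept more often than peaks in coding exons, 3′ untranslated exons and introns in both directions, and in GFP mock intergenic peaks more often still. At like width the order of promoters and introns turned in GFP mock. Among peaks of 200 to 800 bp, 37.8% (36.5–39.2) at promoters and 41.9% (40.9–42.8) in introns were shared there, and 30.9% (29.6–32.1) and 19.8% (19.2–20.4) in Cre DOX. With the top decile of scores the GFP mock values were 17.2% (14.8–19.7) and 19.8% (18.2–21.5), with intervals that overlapped. The intergenic share moved with repeats. Where peaks more than 50% repeat-masked were left out of both lists, intergenic GFP mock peaks were shared in 16.4% and intronic ones in 15.8%, whereas promoters were at 41.0% and coding exons at 30.9%.

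**Figure D2:**
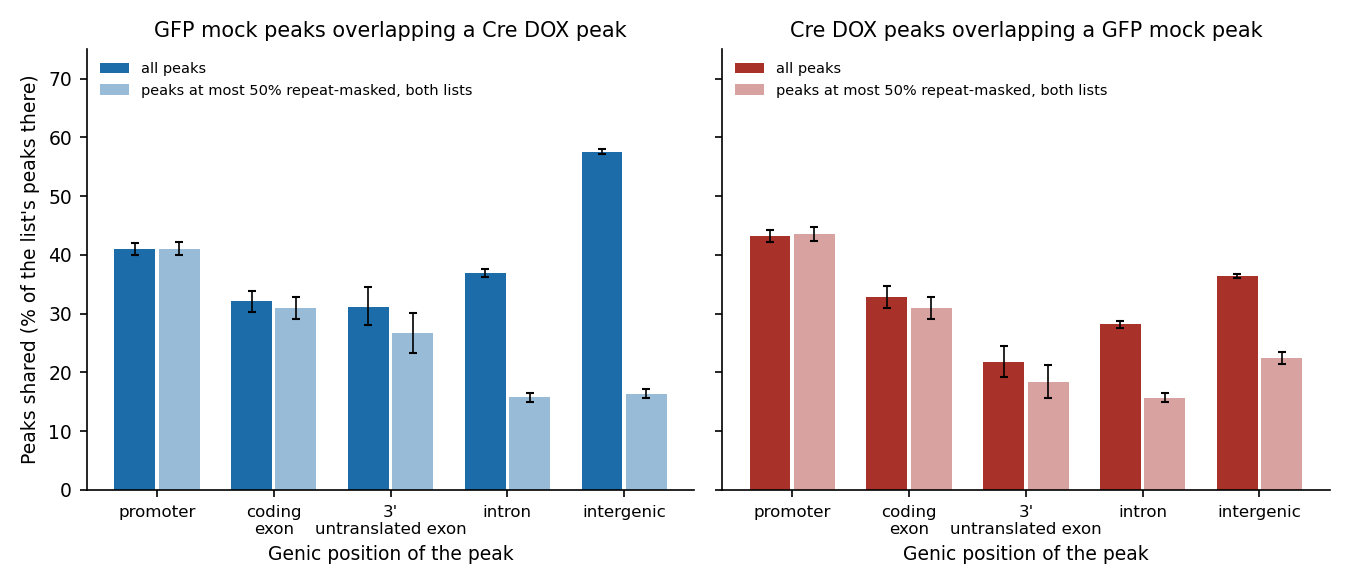
Share of the peaks of GFP mock (left) and Cre DOX (right) that overlapped a peak of the other list, in percent (y axis), by genic position (x axis), for all peaks and for peaks at most 50% repeat-masked in both lists. Bars show exact 95% intervals. Promoter shares were 41.1% and 43.2% for all peaks and 41.0% and 43.6% for the peaks that remained, and intergenic shares fell from 57.6% to 16.4% in GFP mock and from 36.4% to 22.4% in Cre DOX.

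Cre DOX carried its additional length mainly outside exons. Peaks covered 1.47% of intergenic sequence in GFP mock, 1.55% in Cre mock and 4.15% in Cre DOX, and 0.935%, 1.51% and 2.09% of introns. In coding exons the covered share was 2.32% in GFP mock, 5.00% in Cre mock and 2.89% in Cre DOX, and in 3′ untranslated exons it was 1.18%, 3.60% and 2.39%. At promoters it was 4.13%, 7.25% and 5.38%. By covered share, Cre DOX thus lay between the control and the deleted cells in exons and promoters, and above both in introns and intergenic sequence. By number of peaks it lay below both at promoters (8136, against 8842 in GFP mock and 12013 in Cre mock). The same held in coding exons (2612, against 2686 and 4701), while its 992 peaks in 3′ untranslated exons lay between 814 and 1583. GFP DOX covered 4.49% of promoters, 2.81% of coding exons and 1.84% of 3′ untranslated exons. For Cre DOX and Cre mock, in this order, the Jaccard index with GFP mock was 23.9% and 25.3% at promoters, 20.3% and 19.9% in coding exons, 14.1% and 13.1% in 3′ untranslated exons, and 19.6% and 21.9% in intergenic sequence.

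Around the most upstream start site of each protein-coding gene, 8.89% of genes lay under a peak in GFP mock, 12.4% in Cre mock and 8.67% in Cre DOX. GFP DOX, without deletion, was at 8.35%. At the start site itself, Cre DOX and GFP DOX thus lay beside the control. From 100 to 400 bp downstream Cre DOX lay below the control. At 200 bp it was at 9.03%, against 10.1% in GFP mock and 8.79% in GFP DOX. From 500 bp downstream, and from 100 bp upstream, outward to 3 kb, Cre DOX lay above both lists without deletion. At 2 kb downstream the shares were 4.58% for Cre DOX, 2.63% for the control, 3.18% with doxycycline alone and 5.15% after deletion alone, and at 2 kb upstream they were 3.43%, 2.09%, 2.14% and 3.27%.

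**Figure D3:**
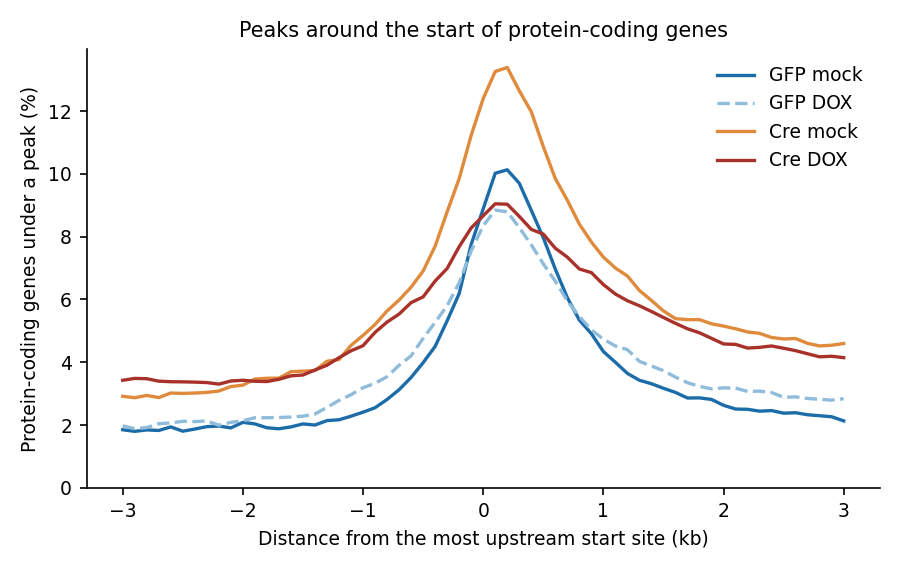
Share of the 21951 protein-coding genes under a peak, in percent (y axis), by distance from the most upstream start site in kb (x axis, positive downstream), for the 4 lists. At the start site Cre DOX (red, 8.67%) lay beside GFP mock (dark blue, 8.89%) and under Cre mock (orange, 12.4%), and on the flanks it lay near Cre mock. From 100 to 400 bp downstream Cre DOX lay below GFP mock.

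By gene, 9400 of the 21951 protein-coding genes (42.8%) had a peak in the body or within 1 kb in both lists, 2665 (12.1%) in GFP mock only, 2483 (11.3%) in Cre DOX only, and 7403 in neither. By promoter, 4040 (18.4%) had a peak in both lists, 2715 (12.4%) in GFP mock only and 2016 (9.18%) in Cre DOX only. The order of the counts in GFP mock only and in Cre DOX only rested on the peaks used. With 1 width floor of 213 bp for all lists there were 1777 promoters in GFP mock only and 2608 in Cre DOX only. With the top decile of scores 189 promoters were in both, 773 in GFP mock only and 498 in Cre DOX only, and in both there were 1436 with a −log10 q-value of at least 2 and 2362 with equal numbers of highest-scoring peaks. By gene, the counts in GFP mock only and in Cre DOX only were 1623 and 3906 with the width floor, and with equal numbers of highest-scoring peaks 3705 and 1914.

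Gene length went with the overlap. Both lists had a peak in 740 of the 4153 genes shorter than 5 kb (17.8%) and in 226 of the 230 genes of 500 kb or more (98.3%). These longest genes had a promoter peak in 39.1% in GFP mock and 21.3% in Cre DOX, whereas peaks covered 0.702% of their bodies in GFP mock and 1.92% in Cre DOX. Among the 9400 genes with a peak in both, the median share of the gene covered was 1.74% in GFP mock and 3.13% in Cre DOX, and 69.8% of them were covered more in Cre DOX.

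To ask about a return, peaks were followed through the 3 lists GFP mock, Cre mock and Cre DOX. Deletion alone went with the loss of 53913 GFP mock peaks, which had no counterpart in Cre mock, and of these 18469 (34.3%, 33.9–34.7) overlapped a Cre DOX peak. Of the 33700 GFP mock peaks that were also in Cre mock, 72.7% (72.2–73.2) did. In the other direction, 59048 Cre mock peaks were absent from GFP mock (found on deletion), and 38266 of them (64.8%, 64.4–65.2) were also absent from Cre DOX, against 26.5% (26.1–27.0) of Cre mock peaks shared with GFP mock. Peaks present in 1 mock list were thus missing from Cre DOX in about the same share whichever list held them, 65.7% for those of GFP mock and 64.8% for those of Cre mock. Seen from Cre DOX, 22.2% of its peaks were in both mock lists, 12.5% in GFP mock only, 14.2% in Cre mock only and 51.1% in neither. The last group covered 26.0 Mb.

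Over all peaks, lost peaks came back least in coding exons, and peaks found on deletion were absent most often in coding and 3′ untranslated exons. Of lost peaks, 17.8% (16.7–19.1) at promoters, 11.5% (9.90–13.4) in coding exons, 16.6% (13.3–20.3) in 3′ untranslated exons, 24.1% (23.4–24.8) in introns and 43.0% (42.4–43.5) in intergenic sequence were present in Cre DOX. Of peaks found on deletion, 75.4% (74.4–76.4) at promoters, 80.4% (79.1–81.7) in coding exons, 80.0% (77.8–82.2) in 3′ untranslated exons, 76.0% (75.4–76.6) in introns and 50.3% (49.7–51.0) in intergenic sequence were absent from Cre DOX. The order turned where mostly repeat-masked peaks were left out. Of lost peaks, 17% at promoters, 11.0% in coding exons, 10.2% in 3′ untranslated exons, 7.53% in introns and 9.29% in intergenic sequence were then present in Cre DOX, and of peaks found on deletion 75.5%, 80.7%, 80.8%, 89.5% and 91.0% were absent from it. Promoters and coding exons moved little, and introns and intergenic sequence went past them.

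**Figure D4:**
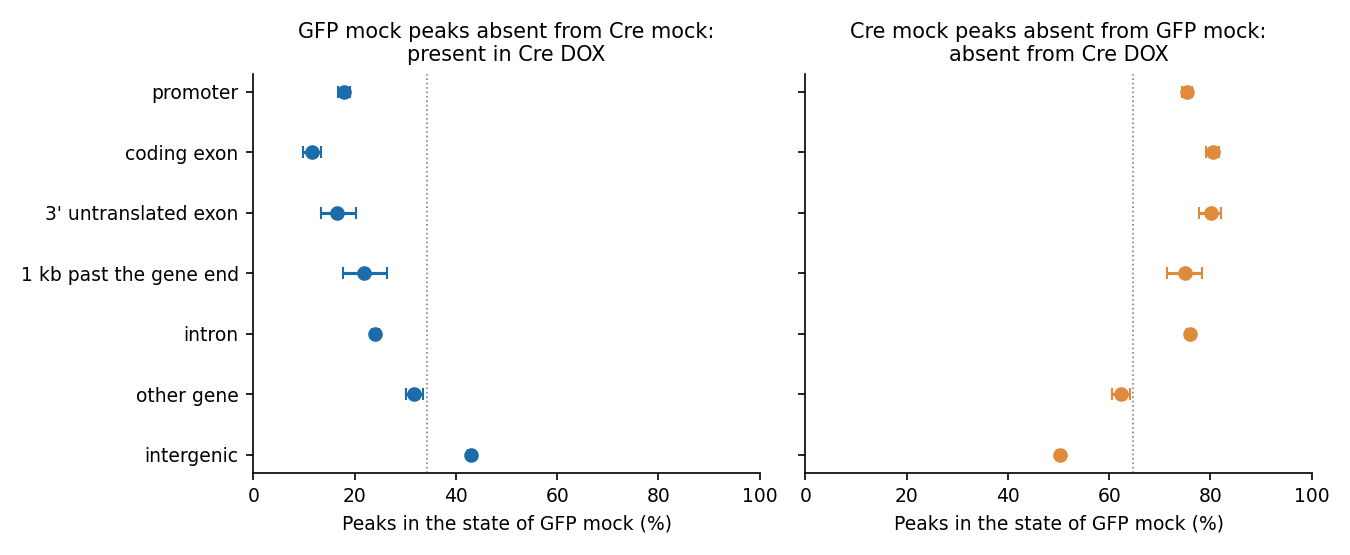
Share of peaks in the state of GFP mock (x axes, percent, with exact 95% intervals) by genic position (y axis): left, GFP mock peaks absent from Cre mock that were present in Cre DOX; right, Cre mock peaks absent from GFP mock that were absent from Cre DOX. Dotted lines mark the values over all such peaks, 34.3% and 64.8%, and intergenic peaks lay on the far side of both lines from promoter and exon peaks.

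Counted by promoter, 1718 protein-coding genes had lost a promoter peak on deletion, and 456 of these (26.5%, 24.5–28.7) had one in Cre DOX. This share was 7.61% with the top decile of scores and 16.2% with a −log10 q-value of at least 2. A promoter peak was found on deletion in 3011 genes, and 1865 of these (61.9%, 60.2–63.7) had none in Cre DOX. For comparison, Cre DOX had a peak at 71.2% (69.9–72.4) of the 5037 promoters in both mock lists and lacked one at 92.9% (92.4–93.3) of the 12185 promoters in neither. Over all genes, the promoter had the same state as in GFP mock in 78.5% of genes for Cre mock, in 78.4% for Cre DOX and in 80.5% for GFP DOX. The same shares were 86.7%, 89.4% and 90.7% for 3′ untranslated exons, 80.2%, 81.4% and 83.9% for coding exons, and 78.1%, 76.5% and 77.2% for the whole gene with its flanks. By this measure, which also counts genes with no peak in either list, exons lay nearer to the control in Cre DOX than in Cre mock, promoters alike, and whole genes farther by 1.59 percentage points. In the 6 alternatives with other peaks or widths, coding exons were nearer by 0.884 to 3.32 points and 3′ untranslated exons by 0.533 to 3.02 points. With the top decile of scores in every list, whole genes were nearer by 0.856 points, and over its 8 alternatives the promoter difference lay between -0.779 and 2.34 points. Among genes with a peak in GFP mock or in the list set beside it, none of these 4 features was nearer in Cre DOX. Both lists then had a peak in 38.8% of genes for Cre DOX and 43.9% for Cre mock in coding exons, in 29.72% and 29.85% in 3′ untranslated exons, in 46.1% and 51.6% at promoters, and in 64.6% and 68.1% over whole genes. Cre DOX peaks lay in coding exons of 4521 genes, those of GFP mock in 4747 and those of Cre mock in 6437.

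The promoter peaks with the best ranks in both lists were on mitochondrial DNA, in Ybx3 and in Mpnd. A promoter peak here is any peak that overlaps 1 kb around an annotated start site. Those on mitochondrial DNA were 5327 to 6515 bp wide, so they are not particular to a promoter. A peak over mt-Co1, a subunit of cytochrome c oxidase, had a score of 1028 in GFP mock (M, positions 1 to 6472) and 2235 in Cre DOX (1 to 6515). A peak over mt-Cytb, the cytochrome b of complex III, had scores of 848 (10973 to 16299) and 1357 (10963 to 16299). These peaks spanned nearly the same bases in both lists. In an intron of Ybx3, a Y-box RNA-binding protein, a peak had scores of 593 (chr6:131377477-131377658) and 382 (chr6:131377366-131377762), with fold enrichments of 23.0 and 15.4. Over a coding and 5′ untranslated exon of Mpnd the scores were 578 (chr17:56005795-56005973) and 355 (chr17:56005690-56006079).

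Promoter peaks of GFP mock in genes with no Cre DOX peak were led by mt-Nd3, a subunit of complex I (M, positions 9756 to 9893, score 509). Setdb2, shown above, followed with a score of 105. The others were Gjb6, a connexin (chr14:57132371-57132690, intron, score 83), and Lcp2, an adaptor of T-cell receptor signalling (chr11:34078841-34078992, intron, score 79). The same 4 genes had a peak in Cre mock as well, with best scores of 213, 110, 99 and 46, so deleted cells without doxycycline still had a peak in each of them. Away from promoters, the highest scores without a Cre DOX peak in the gene were in a coding exon of Notch1, the cell-surface receptor (chr2:26460657-26460997, score 124), in an intron of Greb1 (chr12:16753168-16753315, score 143) and in the 3′ untranslated exon of 9430015G10Rik (chr4:156125529-156125646, score 77).

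Promoter peaks of Cre DOX in genes with no GFP mock peak had scores of at most 47, which are not scaled to those of GFP mock. They were led by Rps9, a protein of the small ribosomal subunit (chr7:3706132-3707120, coding and 3′ untranslated exons, score 47). Next were Hsbp1, which binds heat shock factor 1 (chr8:119343671-119343939, upstream of the gene, score 46), and Hsph1, a heat shock protein (chr5:149620818-149621402, score 46). The last was Flvcr2, a membrane transporter (chr12:85746510-85747301, 5′ untranslated and coding exon, score 44). All 4 genes also had a peak in Cre mock, with best scores of 34, 14, 19 and 23. Away from promoters, Slc30a4, a zinc transporter, had a Cre DOX peak of score 80 in its 3′ untranslated exon (chr2:122681239-122682398), Pradc1 one of score 69 in its coding and 5′ untranslated exons (chr6:85447195-85447855), and Abhd6, a lipid hydrolase, one of score 53 in an intron (chr14:8005975-8006198).

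The pattern of a return at a promoter, with peaks in GFP mock and Cre DOX and none in Cre mock anywhere in the gene, was led by peaks of modest score. They were Vmn1r77, a vomeronasal receptor (37 in GFP mock, 44 in Cre DOX), Gm5965 (33 and 29), Ccdc84 (35 and 28) and Defb7, a beta-defensin (31 and 27). In Ccdc84 the peaks lay at different start sites and did not overlap, and those upstream of Vmn1r77 were 91.0% and 89.8% repeat-masked. Those of Defb7 were 100% and 68.1% repeat-masked. None of these 4 genes had a peak in GFP DOX. The mirrored pattern, a promoter peak found on deletion with none in GFP mock or Cre DOX, was seen among others in Aqp12, an aquaporin (Cre mock score 62), Maf1, a repressor of RNA polymerase III (57), and Gnat1, the transducin subunit of rod photoreceptors (56). Found on deletion and still present with RNaseH1 were, among others, Fam98b (82 in Cre mock, 39 in Cre DOX) and Rps23, a ribosomal protein (48 and 44).

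Rtel1 itself had no peak in GFP mock or GFP DOX, 2 peaks in Cre mock (best score 21) and 1 peak in Cre DOX (score 10). Rnaseh1 had none in any list. Actb, which encodes beta-actin, had best scores of 20 in GFP mock, 38 in both Cre lists and 28 in GFP DOX, and Bcl6, a transcriptional repressor, had 1 peak, in Cre DOX, of score 14. Peaks do not measure expression, so neither the deletion of Rtel1 nor the induction of RNaseH1 could be checked from them. In the list of fibroblast matrix and surface genes, 11 of the 28 annotated had a promoter peak in both lists, led by Col6a2 (54 in GFP mock, 13 in Cre DOX), Vim (21 and 41) and Fn1 (19 and 37), and 13, among them Col1a2 and Col3a1, in neither. A promoter peak in GFP mock was present in 13 of these 28 genes and in 12 of 20 synapse genes of neurons, against 6755 of the 21951 protein-coding genes (30.8%). In Cre DOX it was present in 13 and 4 of them, after deletion alone in 14 and 8, and with doxycycline alone in 11 and 2. The synapse genes had a median length of 487 kb, against 17.4 kb over all protein-coding genes. Of 20 liver plasma protein genes, none had a promoter peak in GFP mock or Cre DOX, and 2 had a peak elsewhere in the gene in both.

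The gene lists were read against all protein-coding genes, of which 18.4% had a promoter peak in both lists, 12.4% in GFP mock only and 9.18% in Cre DOX only. By list, 30.8% of all promoters had a peak in the control, 36.7% after deletion alone, 25.8% with doxycycline alone and 27.6% with both. Of the 13 lists, the cytosolic ribosomal protein genes had the highest share of promoters in Cre DOX only. Of 83, 37 had a promoter peak in both lists, 4 in GFP mock only, 34 in Cre DOX only (41.0%) and 8 in neither. Promoter peaks were present in 41 of them in the control list, 65 after deletion alone, 53 with doxycycline alone and 71 with both. Of the 29 with a promoter peak found on deletion, 2 lacked it in Cre DOX. Nearly all promoters of this group found on deletion thus had a peak in Cre DOX too, whereas over all promoters found on deletion 61.9% had none. Examples were Rps10 (score 46 in Cre mock, 55 in Cre DOX) and Rps9 (34 and 47). Among those with a promoter peak in both lists were Rpl8 (19 in GFP mock, 96 in Cre mock, 90 in Cre DOX), Rpl10a (28, 81 and 82) and Rpl36 (26, 103 and 60). Under the alternative peak and promoter choices, 21 to 41 of the 83 were in Cre DOX only and 0 to 6 in GFP mock only, and the 37 in both fell to 3 with the top decile of scores and 19 with a −log10 q-value of at least 2. Ribosomal protein genes have processed copies elsewhere in the genome, and how reads with several matches were placed is not given in the sources used here.

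**Figure D5:**
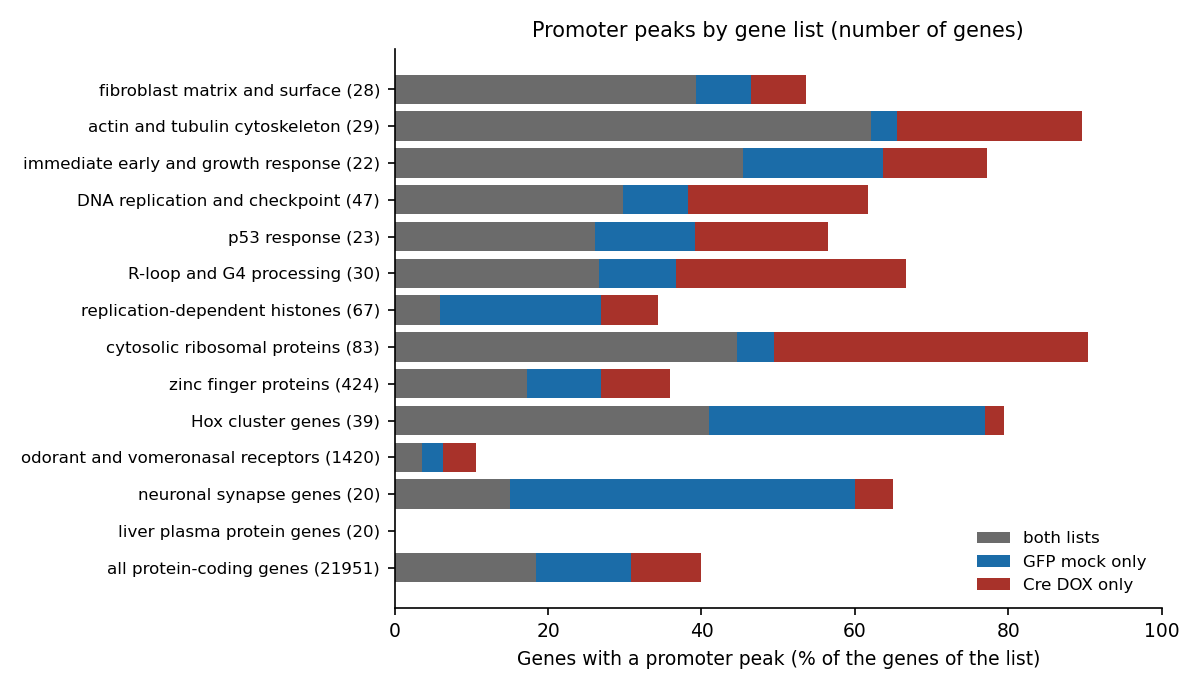
Share of the protein-coding genes of each list (y axis, number of genes in brackets) with a promoter peak in both lists (grey), in GFP mock only (blue) and in Cre DOX only (red), in percent of the genes (x axis). Among ribosomal protein genes 41.0% were in Cre DOX only and 4.82% in GFP mock only, and among Hox genes 2.56% and 35.9%.

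Cytoskeletal, replication and R-loop processing genes also had more promoters in Cre DOX only than in GFP mock only. No alternative peak choice was run for these groups, and over all promoters the order of the one-sided counts turned with the width floor. Of 29 actin and tubulin genes, 18 had a promoter peak in both lists, 1 in GFP mock only (Tubb6) and 7 in Cre DOX only, among them Tubb5 (score 36) and Tuba1b. Of 47 genes of DNA replication and the checkpoint, 14 were in both, 4 in GFP mock only and 11 in Cre DOX only. Prim1, the catalytic subunit of primase, had a promoter peak of score 41 in Cre DOX and none in either mock list, whereas Rpa1, a subunit of the single-strand binding complex, had scores of 35 and 28 in the GFP and Cre mock lists and none in Cre DOX. Of 30 genes of R-loop and G-quadruplex processing, 8 were in both, 3 in GFP mock only (Fanca, Xrn2 and Top1) and 9 in Cre DOX only. These 9 had Cre DOX scores of 10 to 28 with a median of 16, and 10 was the smallest score of any list. Srsf1, a splicing factor, had scores of 33 in GFP mock, 79 in Cre mock and 53 in Cre DOX. Rnaseh2c, a subunit of ribonuclease H2, had 19, 18 and 32, and Ddx39b, an RNA helicase, 29, 36 and 28. The Cre DOX score thus lay between the mock lists for Srsf1, above both for Rnaseh2c and below both for Ddx39b.

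Hox, histone and synapse genes had more promoters in GFP mock only. Of 39 Hox genes, which set position along the body axis and lie in 4 clusters, 16 had a promoter peak in both lists, 14 in GFP mock only (35.9%) and 1, Hoxa9, in Cre DOX only. Hox promoters with a peak numbered 30 in the control, 24 after deletion alone, 19 with doxycycline alone and 17 with both, while over all promoters the share was 30.8%, 36.7%, 25.8% and 27.6% in this order. In the Hoxa cluster 6 of 11 promoters were in GFP mock only, while in the Hoxb cluster 8 of 10 were in both. Hoxc8 had scores of 70 in GFP mock, 28 in Cre mock and 17 in Cre DOX, and Hoxb9 of 46, 89 and 73. Hoxc12 had a score of 38 in GFP mock and none in any other list. Of 67 replication-dependent histone genes, 4 had a promoter peak in both, 14 in GFP mock only (20.9%) and 5 in Cre DOX only. Neighbouring histone genes share peaks, and the 14 promoters rested on 9 distinct GFP mock peaks. Of the 12 histone promoters lost on deletion, which rested on 8 distinct peaks, 0 had a peak in Cre DOX, against 26.5% of the 1718 promoters lost over all genes. Histone promoters with a peak numbered 18 in the control, 12 after deletion alone, 3 with doxycycline alone and 9 with both. These counts are to be read against the shares of all promoters by list given for the Hox genes. Those lost included Hist3h2ba (score 35 in GFP mock) and Hist1h3d (25). Histone genes are short and near-identical in sequence, and their counts per copy are therefore uncertain. Of 20 synapse genes of neurons, 3 were in both, 9 in GFP mock only and 1 in Cre DOX only. These are long genes (median 487 kb), and long genes in general had fewer promoter peaks in Cre DOX. Among all genes of 200 to 500 kb, 43.0% had a promoter peak in GFP mock and 28.8% in Cre DOX. The part of length in the synapse counts was not tested. Under the alternatives the counts in GFP mock only and Cre DOX only lay at 5 to 15 and 1 to 4 for Hox genes, 3 to 15 and 1 to 7 for histones, and 2 to 9 and 0 to 3 for synapse genes. The counts in both lay at 1 to 20, 0 to 10 and 0 to 4, lowest with the top decile of scores in each group.

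In the immediate early, p53 and zinc finger groups the counts in GFP mock only and Cre DOX only lay close together. No alternative peak choice was run for them or for the receptor genes. Of 22 immediate early genes, 10 had a promoter peak in both, 4 in GFP mock only (Junb, Klf2, Klf4 and Atf3) and 3 in Cre DOX only (Fosl1, Zfp36 and Dusp1). Klf10 had scores of 34 in GFP mock, 45 in Cre mock and 55 in Cre DOX, and Fosl1 of 42 in Cre mock and 50 in Cre DOX. Of 23 genes of the p53 response, 6 were in both, 3 in GFP mock only and 4 in Cre DOX only. Of the 8 with a promoter peak found on deletion 5 lacked it in Cre DOX, near the 61.9% over all promoters found on deletion. Of 424 zinc finger genes, 73 were in both, 41 in GFP mock only and 38 in Cre DOX only. Of 1420 odorant and vomeronasal receptor genes, 50 were in both, 40 in GFP mock only and 61 in Cre DOX only, the reverse of the order over all promoters (2715 and 2016). By gene with its flanks, the receptor counts in GFP mock only and Cre DOX only were 65 and 133, against 2665 and 2483 over all genes.

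Chromosomes differed in how much of the map was kept. The share of GFP mock peaks that overlapped a Cre DOX peak ranged over the autosomes from 31.3% on chromosome 9 to 61.3% on chromosome 3, and it was 71.3% on the X chromosome. There were 1.63 Cre DOX peaks per GFP mock peak on chromosome 7 and 0.856 on chromosome 15. Among autosomes, GFP mock peaks were most dense on chromosome 15 (60.1 per Mb) and least dense on chromosome 12 (14.9 per Mb), and Cre DOX peaks ranged among autosomes from 23.9 per Mb on chromosome 12 to 52.6 per Mb on chromosome 17. The input libraries were not analysed here, and the part of copy number in these densities was not tested.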

How the data were processed

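DRIP-seq was carried out in Rtel1F/F;WT RNH1-GFP MEFs, with 4 immunoprecipitated and 4 input libraries, grouped by virus and treatment as labelled. DNA was digested with restriction enzymes, precipitated with S9.6 and pooled from 3 precipitations per condition. The authors ran nf-core/chipseq 1.2.1 on single-end reads against mm10 and called peaks per library with MACS2 (version not given in the sources used here). The deposited lists have the 9 columns of broad peaks, although the stated command asks for narrow ones, which may make peaks wider. Use of the inputs in calling is not stated, and they were not analysed here. The deposited score is 10 times the −log10 q-value, rounded down, in 99.99% to 100% of the peaks of each list. The deposited fold enrichment is a ratio to local background, and the deposited −log10 p-values and −log10 q-values are the caller's. None is normalised between libraries, and no read depth is part of the lists, so precision beyond counting is unknown.

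Here, any overlap of 1 bp or more between peaks of different lists counted as shared, and all peaks were used. Genes came from GENCODE M21 (21951 protein-coding, 93526 start sites), with promoters of 1 kb to either side. Sequence and repeat-masking came from GRCm38.p6, whose 22 chromosomes matched the lists. Shares carry exact (Clopper-Pearson) 95% intervals. No test was made, because each condition had 1 library. Members, gene lists and measures were chosen with earlier results of these data known. Named promoters had the lowest sum of score ranks (both lists, or the return patterns) or the highest score (1 list, no peak of the other in the gene or within 1 kb), and one gene per direction was named by score for coding exons, 3′ untranslated exons and introns. List members were named by score. Some genes that these rules name are not reported here. Interval functions were tested on simulated data against a direct count. Alternatives were the top 10% of scores, a −log10 q-value of at least 2, equal numbers, one width floor, peaks at most 50% repeat-masked, 400 bp around midpoints, other overlap rules, and other gene and promoter extents. Python 3.11.15, numpy 2.4.6, pandas 2.3.3, scipy 1.17.1 and matplotlib 3.10.9 were used.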

Additional observations from a re-analysis of the deposited data

How the results depend on the processing

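The shares depended on which peaks were used, and no alternative had a replicate to set it against. No paired analysis was possible because each group had 1 library. In the order GFP mock peaks absent from Cre DOX, Cre DOX peaks absent from GFP mock, lost peaks present in Cre DOX, and found peaks absent from Cre DOX, the percentages were 74.5, 80.0, 15.5 and 85.8 with the top decile of scores. They were 60.9, 70.3, 26.6 and 70.5 with a −log10 q-value of at least 2, 57.1, 63.2, 29.2 and 68.8 with equal numbers of peaks (60219 per list), and 40.4, 72.3, 44.3 and 55.9 with a width floor of 213 bp. They were 75.6, 72.6, 10.2 and 85.2 with peaks at most 50% repeat-masked, and 68.0, 73.5, 25.8 and 76.7 with 400 bp around each midpoint. With at least 50% of the peak covered they were 58.1, 85.5, 32.9 and 67.0, and with a peak of the other list within 1 kb 40.4, 53.2, 37.5 and 59.0. The Jaccard index of Cre DOX and of Cre mock with GFP mock was 10.8% and 20.3% (top decile), 15.8% and 20.5% (q-value), 18.9% and 21.1% (equal numbers), 18.2% and 20.3% (width floor), 15.9% and 16.4% (repeat-masked), and 9.53% and 10.6% (400 bp), so it was the lower for Cre DOX in all 6. Gene counts in both, GFP mock only and Cre DOX only were 916, 1959 and 1260 with the top decile and 4405, 3384 and 2219 with the q-value limit, and 6384 were in both with equal numbers. One-sided counts moved by over 1.5 times to 1623 and 3906 with the width floor. The gene body without flanks kept all 3 counts within 1.5 times. The share of genes in the state of GFP mock, Cre DOX minus Cre mock, turned from -1.59 to 0.856 percentage points with the top decile. For promoters it turned from -0.00911 to 1.56 (top decile), 2.34 (q-value), 1.25 (equal numbers), 0.478 (repeat-masked), 0.0456 (400 bp) and 0.579 (promoter of 500 bp). The cause of these changes was not tested.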
